A study of Mus musculus with 8 samples.

Results

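The MYC, MAX and MXD network was read here from 10 genes in primary murine keratinocytes (KCs): Myc, Mycn and Mycl, their partner Max, the repressors Mxd1, Mxd3, Mxd4, Mxi1 and Mnt, and the MAX-like gene Mlx. They were taken by symbol from the 41457 genes listed for each sample, every symbol was found, and all 10 passed the filter on low counts that left 12590 genes for testing. The KCs came from tail epidermis of adult C57BL/6 mice (C57BL/6J in the study's text) of wildtype genotype, were grown untreated in serum-free medium low in calcium, split before full confluence, and harvested after 1 week (4 samples) or 3 weeks (4 samples) in culture. Both groups were cultured cells without a sample of fresh epidermis beside them, no sample carried an altered Nfat5 gene, and the number of animals behind a preparation was not given in the sources used here. The comparison asks how the RNA of this network differed between early and prolonged culture.

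MYC proteins are basic helix-loop-helix-leucine zipper transcription factors. They bind DNA as dimers with MAX and recruit histone acetyltransferases to genes of ribosome production, nucleotide synthesis and cell growth. MXD proteins, MXI1 and MNT compete for the same MAX partner and bring the SIN3 corepressor and histone deacetylases to the same sites, while MLX dimerizes with part of the MXD proteins and MNT and with the glucose-responsive factors MLXIP and MLXIPL. In epidermis, Myc is known as a gene of proliferating basal cells and Mxd1 as a gene that is turned on when KCs leave the basal layer and differentiate.

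The site that these dimers share is the E-box CACGTG, a palindrome that reads the same on both strands, and it is shown here because network genes can carry it in their own promoters. Promoters from 250 bases before to 50 bases after each RefSeq start (build GRCm38.p6) were available for 9 of the 10 genes. Myc was without an entry. The E-box was in 4 of the 11 promoters of these genes (36.4%), in 7.15% of all 32851 promoters of the table, and in 9.87% of those of tested genes that had a match. The windows below are written 5′ to 3′ on the strand of the gene, with the E-box in capitals. The Max window on the minus strand (chr12:76962246-76962268) spans the start itself, Mxd4 lies on the minus strand at chr5:34187907-34187946, Mnt on the plus strand at chr11:74830784-74830823, and Mlx on the plus strand at chr11:101087233-101087272.
Max: ggcgcggtgagcccggtCACGTG
Mxd4: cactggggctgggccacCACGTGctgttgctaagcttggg
Mnt: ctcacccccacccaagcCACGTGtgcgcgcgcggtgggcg
Mlx: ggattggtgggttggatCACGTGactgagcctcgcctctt
The E-box began 3 bases before the start in Max, 219 in Mxd4, 123 in Mnt and 40 in Mlx. Of these 4 genes, Max and Mxd4 rose between 1 and 3 weeks, whereas Mnt and Mlx did not pass the test. Mycl, Mxd1, Mxd3, Mxi1 and Mycn held no such match in their windows. These matches are letters in a sequence and say nothing on occupancy.

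Each library held between 13896807 and 20026084 reads on exons. Basal KC genes were high everywhere, with 7 of them (Krt5, Krt14, Trp63, Itga6, Itgb4, Col17a1 and Dsg3) summing to 12303-14581 RPKM (reads per kilobase of exon, scaled to the mapped reads of the library) at 1 week and to 7240-8398 RPKM at 3 weeks. A single gene of the 7 reached 7628 RPKM, so the most abundant genes weigh most in this sum. In the test given below, 2 of the 7 were called lower and 0 higher (17.0% and 15.7% of all genes). Their median log2 fold change was -0.23. The 1-week replicates 3 and 4 stood apart from the other samples. In them 6 suprabasal KC markers (Krt1, Krt10, Ivl, Lor, Flg and Krtdap) summed to 78.2 and 102.6 RPKM, against 9.81 and 9.04 RPKM in replicates 1 and 2 and 4.57-14.7 RPKM at 3 weeks, and 5 melanocyte markers summed to 15.4 and 20.9 RPKM, against at most 5.50 RPKM elsewhere. The highest value of a single suprabasal marker in any sample was 76.0 RPKM. A high sum can thus rest mostly on 1 gene and does not show that all 6 were raised. Marker sums were 2.30-4.65 RPKM for 6 fibroblast genes, at most 4.04 RPKM for 5 immune genes (Cd207 at 0 in every sample), at most 0.55 RPKM for 3 endothelial genes and at most 0.64 RPKM for 3 Merkel cell genes. In such bulk samples fewer cells of a type and less RNA per cell cannot be told apart.

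Of the 10 network genes, 3 rose from 1 to 3 weeks (Mycl, Max and Mxd4) and 2 fell (Myc and Mxd3), while the other 5 did not pass the test (edgeR quasi-likelihood test, Benjamini-Hochberg adjusted p under 0.05 over all genes tested). Over all genes, 15.7% were called higher and 17.0% lower, 32.8% in all. The median log2 fold change of the 10 genes was 0.30, against 0.03 for all genes tested. The RPKM ranges of the time points did not overlap for Mycl and Mxd4, which were higher at 3 weeks (10.8% of all genes), nor for Myc and Mxd3, which were lower (26.2% of all genes), 37.0% in all. RPKM values lack the library normalization of the test and therefore lean towards lower levels at 3 weeks. In the test, the same 5 genes were called when any single library was left out. When the 1-week replicates 3 and 4 were both left out, an alternative chosen after the data were seen, 4 network genes were called higher (Mycl, Max, Mxd4 and now Mxd1, with 7.30% of all genes) and 0 lower in edgeR (11.5% of all genes), while 2 genes, Myc and Mxd3, were lower at an unadjusted p under 0.05.

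**Figure D1:**
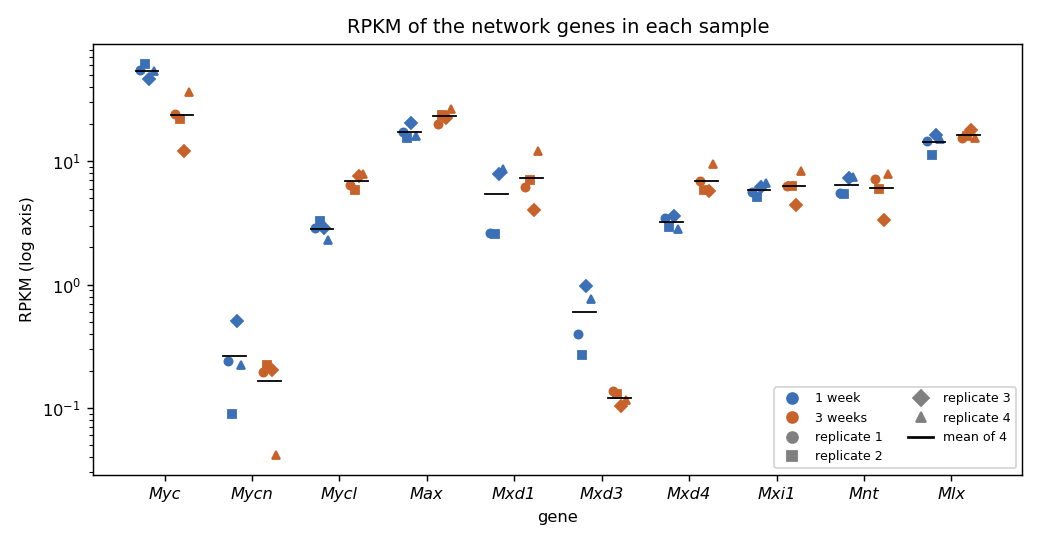
RPKM on a log axis of each network gene in the 4 samples at 1 week (blue) and the 4 at 3 weeks (orange), with one symbol shape per replicate number and black lines for the mean of 4 samples. Myc falls from the highest position at 1 week into the range of Max at 3 weeks, Mycl and Mxd4 shift upwards without overlap, and Mxd3 is near the bottom of the axis at 3 weeks.

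Among the activating members, Myc (chr15:61985391-61990374, plus strand) was the most abundant network transcript in young cultures and fell by more than its spread. Its RPKM was 55.2, 62.0, 46.4 and 53.7 in the 1-week replicates 1 to 4 and 24.4, 22.2, 12.1 and 36.4 in the 3-week replicates 1 to 4. Every 3-week sample was below every 1-week sample, with replicate 3 the lowest and replicate 4 the highest of the older cultures. Means were 54.3 ± 6.39 RPKM in young and 23.8 ± 9.99 RPKM in old cultures (SD, n = 4), and the log2 fold change was -1.05 ± 0.26 (SE, edgeR adjusted p = 0.0129), or 2.08-fold lower. Leaving out one library at a time gave log2 fold changes between -1.31 and -0.88. Without the 1-week replicates 3 and 4 it was -1.17 ± 0.35, a larger fall that no longer passed with 2 samples against 4 (edgeR adjusted p = 0.0629, range over all alternatives 0.0012 to 0.0629).

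Mycl (L-Myc, chr4:122995652-123002485, plus strand), a MYC paralog with a weaker activation domain, moved the opposite way from Myc. Its RPKM was 2.89, 3.28, 2.90 and 2.30 in the 1-week samples and 6.46, 5.88, 7.60 and 7.82 in the 3-week samples. The older cultures were all above the younger ones, and both groups were tight. Its log2 fold change was 1.46 ± 0.17 (SE, edgeR adjusted p = 0.000597, 2.75-fold higher, 4 samples per group), and it stayed between 1.34 and 1.55 when single libraries were left out. Few Mycl reads crossed exon-exon junctions, 1-10 per sample at 1 week and 4-19 at 3 weeks. These ranges overlapped, and the rise was not tested on such reads. Mycl remained less abundant than Myc, at 0.053 ± 0.008 times Myc at 1 week and at 0.34 ± 0.19 times Myc at 3 weeks (ratio of RPKM, SD, n = 4).

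Mycn (N-Myc), the MYC paralog of embryonic and neural tissue, was close to the limit of detection. It had 15, 6, 24 and 13 exon reads in the 1-week samples and 12, 12, 11 and 2 reads in the 3-week samples, that is 0.09-0.51 RPKM and 0.04-0.22 RPKM. The groups overlapped, and a difference was not detectable at this depth (log2 fold change -0.45 ± 0.60, edgeR adjusted p = 0.595).

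Max (chr12:76937269-76962201, minus strand), the common partner of the network, was moderately higher at 3 weeks. Its RPKM was 17.2, 15.6, 20.3 and 16.1 at 1 week and 20.3, 23.5, 22.6 and 26.5 at 3 weeks. The RPKM ranges touched at 1-week replicate 3 and 3-week replicate 1, whereas the counts after library normalization did not overlap. In log2 fold change it rose by 0.59 ± 0.13 (SE, edgeR adjusted p = 0.00954, 1.51-fold higher). By numbers in the names of the deposited data, 3 cell preparations were sampled at both times. Compared within these preparations, the log2 fold change of Max was 0.47 and did not pass (edgeR adjusted p = 0.105, range over all alternatives 0.000378 to 0.105).

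The repressor members did not move as a group. Mxd4 (Mad4, chr5:34173883-34187720, minus strand), an MXD protein known from cells that exit the cycle, rose from 3.44, 2.95, 3.63 and 2.85 RPKM at 1 week to 6.86, 5.83, 5.73 and 9.45 RPKM at 3 weeks. All older cultures were above all younger ones, with 3-week replicate 4 the highest. The log2 fold change was 1.27 ± 0.17 (SE, edgeR adjusted p = 0.00092, 2.41-fold higher). Of its exon reads 79.5% mapped to one place only, and the log2 fold change was 1.17 on unique reads and 0.75 on reads across exon-exon junctions, a smaller rise that also passed (edgeR adjusted p = 0.0188, range over all alternatives 1.87e-09 to 0.0190).

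Mxd3 (Mad3, chr13:55325168-55329823, minus strand), the MXD protein known from the S phase of dividing cells, went the other way from Mxd4. It had 18, 13, 33 and 32 exon reads in the 1-week samples and 6, 5, 4 and 4 reads in the 3-week samples, or 0.40, 0.27, 0.97 and 0.77 RPKM against 0.14, 0.13, 0.10 and 0.11 RPKM. Every older culture was lower, and the 1-week replicates 3 and 4 were the highest. Its log2 fold change was -2.11 ± 0.47 (SE, edgeR adjusted p = 0.00882, 4.31-fold lower). Without those 2 libraries it was -1.31 and did not pass (edgeR adjusted p = 0.0705, range over all alternatives 0.00185 to 0.0705). Its last bases overlap Prelid1 on the opposite strand over 105 bases, and Prelid1 was at 83.6-174 RPKM. Whether the counting used strand was not stated, so a part of the few Mxd3 reads cannot be assigned with certainty.

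Mxd1 (Mad1, chr6:86647042-86669161, minus strand), the MXD protein known from differentiating KCs, varied more between cultures of one age than between the ages. Its RPKM was 2.60, 2.59, 7.92 and 8.69 at 1 week and 6.15, 7.08, 4.06 and 12.2 at 3 weeks. At 1 week replicates 3 and 4 were well above replicates 1 and 2, and the groups overlapped. These were the 2 libraries with the high suprabasal and melanocyte marker sums given above, and the part of those cells in the Mxd1 level was not tested. Within the 3-week samples, replicate 4 had both the highest Mxd1 level and the highest suprabasal sum (14.7 RPKM). The other samples did not keep this order. The 3-week replicate 3 had the next highest sum (6.08 RPKM) with the lowest Mxd1 level of its group. The 3-week replicates 1 and 2 had sums of only 4.57 and 4.86 RPKM. The 1-week replicates 1 and 2 had sums of 9.81 and 9.04 RPKM with the lowest Mxd1 levels of all. Over all samples the log2 fold change was 0.58 ± 0.46 (SE, edgeR adjusted p = 0.369). Without the 1-week replicates 3 and 4 it was 1.63 ± 0.42 and passed (edgeR adjusted p = 0.0387, range over all alternatives 0.0387 to 0.697). These 2 libraries held the highest Mxd1 values of their group, so leaving them out had to raise the fold change. That setting was also chosen after the data were seen, and it therefore does not show a rise of Mxd1. In the other 19 alternatives Mxd1 did not pass, and without 3-week replicate 4 its log2 fold change was 0.26.

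**Figure D2:**
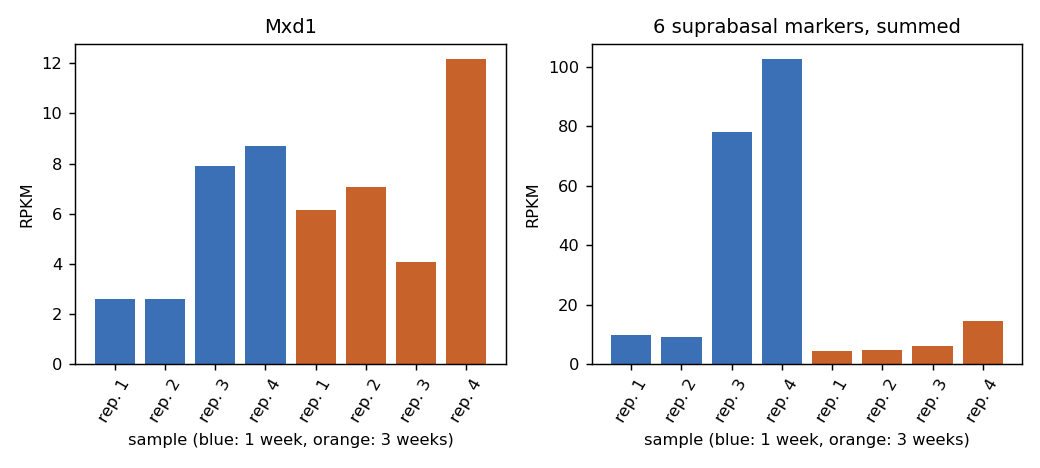
RPKM of Mxd1 (left) and the summed RPKM of 6 suprabasal KC markers (right), one bar per sample, blue for 1 week and orange for 3 weeks. The 1-week replicates 3 and 4 are high in both panels, while the 3-week samples have Mxd1 levels of 4.06-12.2 RPKM with marker sums of only 4.57-14.7 RPKM.

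Mxi1 (chr19:53310506-53375810, plus strand), also an antagonist of MYC that binds MAX and SIN3, had 5.66, 5.14, 6.14 and 6.64 RPKM in young and 6.25, 6.29, 4.41 and 8.36 RPKM in old cultures. The groups overlapped widely (log2 fold change 0.25 ± 0.17, edgeR adjusted p = 0.280). Mnt (chr11:74830920-74845725, plus strand), the repressor that most cell types express throughout, had 5.54, 5.40, 7.36 and 7.44 RPKM in young and 7.17, 6.00, 3.33 and 7.94 RPKM in old cultures. Its groups overlapped too, with 3-week replicate 3 the lowest sample, and its log2 fold change was 0.07 ± 0.23 (edgeR adjusted p = 0.848). The sign for Mnt depended on the scaling and on single libraries. The 3-week replicate 3, which was low for Mnt, Mxi1 and Myc, also had the smallest normalization factor (0.853, against 0.965-1.07 in the other libraries). RPKM values do not contain this factor and are therefore low for that library relative to the fitted fold changes.

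**Figure D3:**
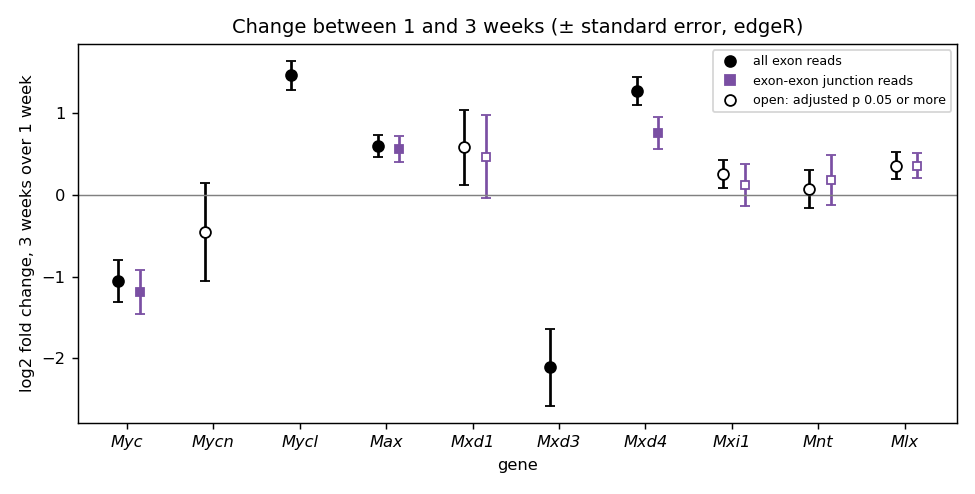
Log2 fold change of each network gene, 3 weeks over 1 week, with its standard error from edgeR, on all exon reads (black circles) and on reads across exon-exon junctions (purple squares), filled where the adjusted p was under 0.05. Myc and Mxd3 lie below the zero line and Mycl, Max and Mxd4 above it, and the junction value of Mxd4 (0.75) is below its exon value (1.27).

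In the MLX branch of the network no factor passed the test over all samples. Mlx (chr11:101087277-101092207, plus strand) had 14.5, 11.2, 16.4 and 15.1 RPKM in young and 15.5, 15.9, 18.0 and 15.5 RPKM in old cultures. The RPKM ranges overlapped, whereas the counts after library normalization were all higher at 3 weeks. The log2 fold change of 0.35 ± 0.16 did not pass the test (edgeR adjusted p = 0.127). Its end overlaps Psmc3ip on the opposite strand over 385 bases, a gene at 0.90-4.93 RPKM that fell by 1.55 on the log2 scale. Mlxip (MondoA), the MLX partner that shuttles to the nucleus upon rising glucose 6-phosphate, was at 3.88-5.48 RPKM and at 3.29-6.96 RPKM (log2 fold change 0.43 ± 0.20, edgeR adjusted p = 0.140). Without 3-week replicate 3, its lowest sample, Mlxip was at 0.57 and passed (edgeR adjusted p = 0.0170, range over all alternatives 0.0170 to 0.503). Mlxipl (ChREBP), the partner known from liver and fat, had between 0 and 2 reads in each sample, below the 3 reads that a count of 0 allows, and was not tested. Mga, a MAX partner of the non-canonical Polycomb complexes, was at 1.39-2.48 RPKM and at 0.57-2.32 RPKM (log2 fold change -0.24 ± 0.35, edgeR adjusted p = 0.641).

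Among the targets of the MLX dimers, Txnip, an inhibitor of glucose uptake and of thioredoxin, rose strongly. Young cultures had 14.9, 13.2, 11.6 and 13.6 RPKM and old ones 45.1, 48.4, 54.4 and 63.4 RPKM, without any overlap. The log2 fold change was 2.15 ± 0.16 (SE, edgeR adjusted p = 0.000164, 4.44-fold higher). Only 15.1% of its exon reads mapped to one place, and on those the log2 fold change was 2.10. Its paralog Arrdc4 (alpha-arrestin) was at 5.97, 5.25, 6.57 and 6.58 RPKM and at 7.57, 6.78, 6.50 and 12.4 RPKM, with overlapping ranges. The log2 fold change of Arrdc4 was 0.60 ± 0.20 (edgeR adjusted p = 0.0474), a call that was lost when 1-week replicate 1, 2, 3 or 4 or 3-week replicate 1 or 4 was left out (adjusted p between 0.0446 and 0.123 over the libraries left out). The E-box of Arrdc4, shown because the gene is a known target of MLX dimers, lies on the minus strand at chr7:68749409-68749448 and begins 193 bases before the start.
Arrdc4: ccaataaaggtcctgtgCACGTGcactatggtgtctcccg
The Txnip window held no CACGTG. By RPKM the time points separated for Txnip and not for Arrdc4, while the counts after library normalization did not overlap for either gene.

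Per length of exon, the order of the network transcripts at 1 week was Myc (54.3 RPKM), Max (17.3 RPKM), Mlx (14.3 RPKM), Mnt (6.44 RPKM), Mxi1 (5.89 RPKM), Mxd1 (5.45 RPKM), Mxd4 (3.22 RPKM), Mycl (2.84 RPKM), Mxd3 (0.60 RPKM) and Mycn (0.26 RPKM). The ranges of neighbours were apart between Myc and Max, between Mlx and Mnt and between Mycl and Mxd3, and overlapped for every other pair of neighbours. At 3 weeks Myc (23.8 RPKM) and Max (23.2 RPKM) overlapped. Mlx (16.3 RPKM) followed, apart from Max but within the range of Myc. Then came Mxd1 (7.36 RPKM), Mxd4 (6.97 RPKM), Mycl (6.94 RPKM), Mxi1 (6.33 RPKM) and Mnt (6.11 RPKM), all with overlapping ranges, and last Mycn (0.17 RPKM) and Mxd3 (0.12 RPKM).

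The composition of the network RNA shifted accordingly. Myc made up 51.3%, 57.2%, 41.2% and 47.2% of the summed RPKM of the 10 genes in the 1-week samples and 26.1%, 23.9%, 15.5% and 29.3% in the 3-week samples. The mean share of Max went from 15.6% ± 1.80 to 24.3% ± 3.55, that of Mycl from 2.58% ± 0.42 to 7.31% ± 1.64 and that of Mxd4 from 2.91% ± 0.36 to 7.13% ± 0.59 (SD, n = 4). Shares of one sum are not independent of each other, since a lower Myc raises all others. The ratio of Myc to Max was 3.20 ± 0.70 at 1 week and 1.01 ± 0.36 at 3 weeks, and its ranges were apart (2.29-3.99 and 0.53-1.37). The summed MXD, MXI1 and MNT transcripts were 0.41 ± 0.14 times Myc at 1 week and 1.18 ± 0.19 times Myc at 3 weeks, with 0.26-0.56 in younger and 1.04-1.46 in older cultures. Against Max the same sum was 1.25 ± 0.28 and 1.15 ± 0.29, with overlapping ranges.

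**Figure D4:**
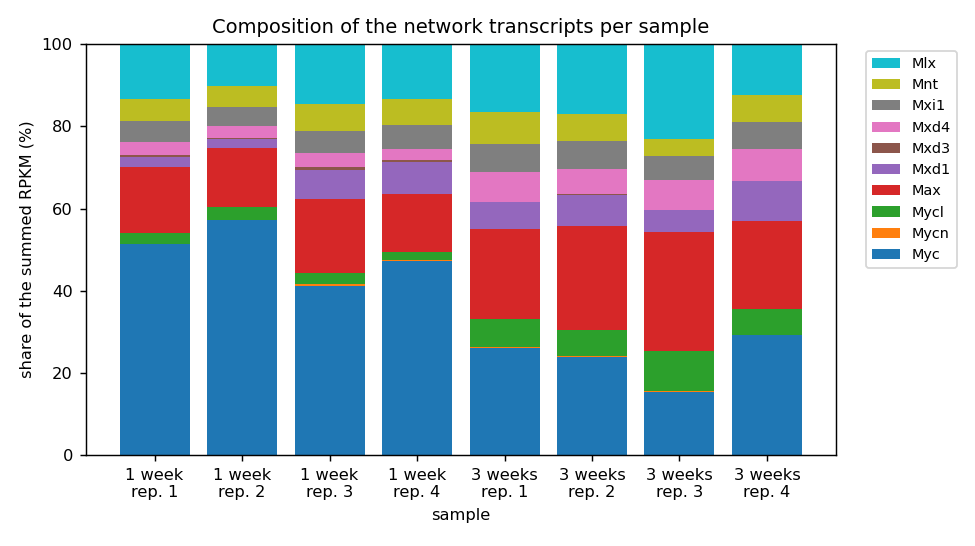
Stacked bars of the share of each network gene in their summed RPKM (%), one bar per sample. The Myc share at the base of the bars is 41.2-57.2% in the 4 samples at 1 week and 15.5-29.3% in the 4 samples at 3 weeks, while the segments of Max, Mycl and Mxd4 widen.

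Reads within introns, which come mostly from RNA not yet spliced, were too few for most members. Only Max, Mxd1 and Mxi1 were tested on them among 4016 genes, of which 8.76% were called. None of these 3 passed in edgeR, and 0 had an unadjusted p under 0.05. The log2 fold change was 0.06 ± 0.29 for Max, -0.11 ± 0.46 for Mxd1 and -0.02 ± 0.46 for Mxi1. Max thus rose on exon reads without a rise detectable on introns, and the difference of both readouts was not tested. Myc had only 4-21 intron reads per sample. On reads across exon-exon junctions, which come from spliced RNA, Myc fell by 1.19 on the log2 scale (SE 0.27, edgeR adjusted p = 0.0102) and Max rose by 0.56 (SE 0.16, edgeR adjusted p = 0.0275), whereas Mycl and Mxd3 had too few of them to be tested.

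Among the genes of the proteins that the network recruits, the share called was close to that of all genes. Of 22 cofactor genes, 6 fell (17.0% of all genes) and 2 rose (15.7% of all genes), and their median log2 fold change was -0.09. The fallen ones were, besides Kat5 (Tip60), the MYC coactivators Ruvbl2 and Ruvbl1 (helicases of the TIP60 and INO80 complexes), Wdr5 (a chromatin adaptor of MYC) and Kat2a (the acetyltransferase GCN5), together with Rbbp7, a histone-binding subunit of corepressor complexes. Ruvbl2 went from 43.7 ± 1.79 to 18.9 ± 2.40 RPKM (log2 fold change -1.04, edgeR adjusted p = 0.000853) and Ruvbl1 from 27.3 ± 0.79 to 12.9 ± 2.52 RPKM (-0.91, adjusted p = 0.00423). Wdr5 fell by 0.69 and Kat2a by 0.62 on the log2 scale, and neither Kat2a nor Kat5 passed without the 1-week replicates 3 and 4 (for Kat2a edgeR adjusted p = 0.0948, range over all alternatives 0.000709 to 0.0948). The risen ones belong to the SIN3 corepressor: Sap18 went from 2.01 ± 0.21 to 3.62 ± 0.10 RPKM (log2 fold change 1.02, edgeR adjusted p = 0.000737) and Suds3 from 6.74 ± 0.68 to 8.14 ± 0.55 RPKM (0.44, adjusted p = 0.0336). The call for Suds3 was lost without 1-week replicate 1, 2 or 4 or 3-week replicate 1, 2 or 3. Over the libraries left out singly, 1 to 4 cofactors were called higher, 4 of them without 3-week replicate 4. Sin3a, Sin3b, Hdac1, Hdac2 and Trrap did not pass the test.

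Of 15 genes that act on the stability or phosphorylation of the MYC protein, 7 fell and 0 rose in edgeR (17.0% and 15.7% of all genes), with a median log2 fold change of -0.48. At an unadjusted p under 0.05, and also by DESeq2, 2 of them were higher, the ubiquitin ligase genes Fbxw7 and Btrc. In edgeR 1 was called higher without 3-week replicate 3 and 2 without 3-week replicate 4. The largest falls were in genes that are also known from mitosis. Plk1, a mitotic kinase, went from 27.4 ± 13.7 to 2.11 ± 0.82 RPKM (log2 fold change -3.52, edgeR adjusted p = 0.000706), and Aurka, a kinase that also shields MYC proteins from degradation, from 25.4 ± 6.08 to 2.61 ± 1.10 RPKM (-3.11, adjusted p = 0.000542). Plk1 was likewise highest in the 1-week replicates 3 and 4, and without them its log2 fold change was -2.78. Cip2a, an inhibitor of the phosphatase PP2A, fell by 2.33 and Usp36, a nucleolar deubiquitinase, by 1.12 on the log2 scale, the latter without passing when the 1-week replicates 3 and 4 were left out (edgeR adjusted p = 0.0658, range over all alternatives 0.00162 to 0.0658). Skp2, Set and Ppp2r5a were the other 3 that fell. Among the ubiquitin ligases, Fbxw7 had a log2 fold change of 0.95 and Huwe1 of 0.45, and neither passed the test in edgeR.

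Genes widely described as activated by MYC were mostly lower in old cultures. Of 40 such genes 25 fell and 0 rose in edgeR (17.0% and 15.7% of all genes), and 0 were higher by DESeq2 or at an unadjusted p under 0.05. The median log2 fold change was -0.82 against 0.03 over all genes, and 31 had RPKM ranges wholly below those of 1 week (26.2% of all genes). The number that fell was 22 to 32 over the libraries left out, and 20 without the 1-week replicates 3 and 4. These genes are also known to follow proliferation and growth in general. Shmt2, the mitochondrial serine hydroxymethyltransferase, went from 92.9 ± 18.6 to 21.0 ± 5.45 RPKM (log2 fold change -1.97, edgeR adjusted p = 0.000717). Dkc1, the pseudouridine synthase of ribosomal and telomerase RNA, went from 15.8 ± 2.68 to 4.25 ± 1.00 RPKM (-1.73, adjusted p = 0.000403). Odc1, the first enzyme of polyamine synthesis, had 145, 133, 135 and 135 RPKM in young and 38.4, 54.6, 52.8 and 15.9 RPKM in old cultures, a fall of 1.58 on the log2 scale (edgeR adjusted p = 0.00885). Polr1b, a large subunit of RNA polymerase I, fell by 1.52 on the log2 scale. Further genes of ribosome assembly fell as well, as Npm1, Nop56, Nop58, Gnl3 and Wdr43. Not all targets followed, since Cdk4, Ccnd2, Ldha, Nme1 and Tert did not pass the test, with log2 fold changes between -0.33 and 0.03. The E-box was in 12 of the 39 promoters of the 33 target genes that matched (30.8%, against 7.15% of all promoters and 9.87% of those of tested genes). Among the 19 matched genes of those that fell it was in 4 of 20 promoters (20%), a lower share than over the whole list.

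Of 15 genes described as repressed by MYC, 6 rose and 3 fell (15.7% and 17.0% of all genes), with a median log2 fold change of 0.06. Clu (clusterin, a secreted chaperone) went from 17.9, 22.8, 20.4 and 8.25 RPKM to 488, 279, 256 and 267 RPKM, a log2 fold change of 4.38 ± 0.37 (edgeR adjusted p = 0.000204, 20.8-fold higher). Thbs1, a matrix glycoprotein that restrains angiogenesis, was at 196 ± 55.5 and at 944 ± 486 RPKM (log2 fold change 2.40, edgeR adjusted p = 0.0024). Gadd45g, a growth arrest gene, was at 2.91, 4.01, 3.62 and 2.56 RPKM and at 20.4, 7.83, 5.50 and 48.3 RPKM. Its log2 fold change of 2.77 (edgeR adjusted p = 0.00885) became 1.94 without 3-week replicate 4, and it did not pass without the 1-week replicates 3 and 4 (adjusted p = 0.0961, range over all alternatives 9.47e-06 to 0.0961). Cdkn2b, the CDK inhibitor p15, rose by 1.70 on the log2 scale, and Cdkn1a (p21) and the integrin gene Itgb1 were the other 2 that rose, Itgb1 without passing when the 1-week replicates 3 and 4 were left out.
Against the name of the list, the CDK inhibitor gene Cdkn2c (p18) went from 3.69 ± 1.71 to 0.52 ± 0.26 RPKM (log2 fold change -2.70, edgeR adjusted p = 0.00211). The 1-week replicates 3 and 4 were its highest samples (4.56 and 5.66 RPKM, against 2.54 and 2.01), and without them the log2 fold change was -2.02. Ndrg1, a gene of stress and differentiation, fell by 0.55 and the basal integrin gene Itga6 by 0.75 on the log2 scale. Ndrg1, with 46.6% unique exon reads, did not pass within the 3 preparations sampled at both times (edgeR adjusted p = 0.0970, range over all alternatives 0.00131 to 0.0970). The call for Itga6 was lost without 1-week replicate 3 or 4 or 3-week replicate 2, 3 or 4. The number of list genes that fell was 2 to 5 over the libraries left out, 5 of them without 3-week replicate 4.

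**Figure D5:**
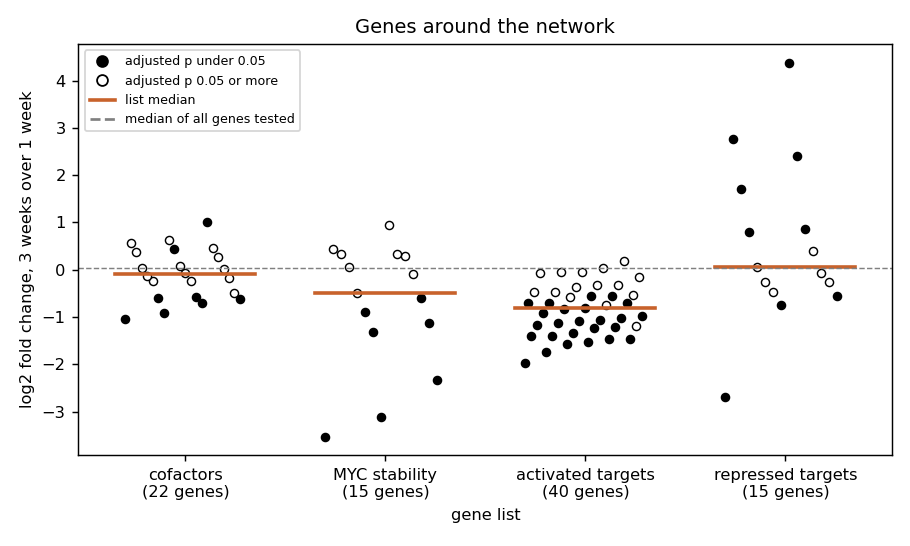
Log2 fold change, 3 weeks over 1 week, of every gene of 4 lists (22 cofactors, 15 MYC stability genes, 40 activated and 15 repressed targets), filled where the edgeR adjusted p was under 0.05, with the list median in orange and the median of all genes tested (0.03) as a dashed line. Filled points of the activated targets all lie below zero, whereas the repressed targets spread from -2.70 to 4.38.

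Over the 8 samples, the genes whose log2 normalized counts followed Myc most closely were Proser3, Vars, Trim14, Cd68 and Pomt1, with Pearson r between 0.976 and 0.980 for the 5 of them. After removal of the mean of each time point r was still 0.92 to 0.96, and with any library left out it was 0.949 or more. The points share their libraries and normalization, and these genes were picked from all tested genes outside the lists as the closest, so that the values are a description. Vars, the valyl-tRNA synthetase, had 55.3-63.1 RPKM in young and 24.3-50.8 RPKM in old cultures. Cd68, a lysosomal glycoprotein, was at 13.7-19.5 RPKM and at 5.09-12.5 RPKM, and Pomt1, a protein O-mannosyltransferase, at 2.26-2.76 RPKM and 1.20-2.07 RPKM. As for Myc, 3-week replicate 3 was the lowest and 3-week replicate 4 the highest of the older cultures in each of these 5 genes. A shared order goes with the way they were picked. Proser3 and Trim14 had only 15-30 and 1-19 exon reads at 3 weeks, and Pomt1 did not pass the test between the time points (edgeR adjusted p = 0.0671).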

How the data were processed

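RNA of 4 KC samples at 1 week and 4 at 3 weeks was sequenced by the study from poly(A) libraries as single reads, trimmed and mapped to GRCm38 with CLC Genomics Workbench (version 12, default settings). The annotation release and the strand setting were not given in the sources used here. The authors deposited one table per sample with read counts per gene (exon, unique exon, intron and exon-exon junction reads) and RPKM and TPM values, the latter written with decimal commas. The depth was 13896807-20026084 exon reads per library.

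From these tables, the total exon counts of 12590 genes entered edgeR 4.0.16 (R 4.3.3, filterByExpr, TMM factors, quasi-likelihood F test, unpaired, all 8 samples, two-sided). Calls were made at Benjamini-Hochberg adjusted values under 0.05. As standard error served the log2 fold change divided by the root of F. Intron reads were tested in the same way. RPKM served for levels and shares, limma 3.58.1 on log2(RPKM + 0.1) and log2(RPKM + 1) and DESeq2 1.42.0 as alternatives. Promoters were RefSeq sequences of GRCm38.p6, and gene positions were those that the authors deposited with the counts. On simulated counts over 12438 genes for this comparison, 22 of 100 genes changed 2-fold and 84 of 100 changed 4-fold were recovered, with 5 false calls. No other genes were changed in the simulation, whereas 32.8% of genes were called in the data. The adjustment over all genes is then stricter in the simulation, so these shares do not measure recovery in the data.

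The network genes and lists were chosen with earlier results of these data known. Named were all network genes, Mlxip, Mlxipl, Mga, Txnip and Arrdc4, up to 4 largest rises and falls per list with a mean of at least 1 RPKM, and the 5 genes closest to Myc. Genes named beyond this were chosen after their values were seen. The labels speak of 4 independent experiments, so that p-values measure the spread between cultures. However, the names of the deposited data carry numbers that were read here as cell preparations. The sample titles hold only replicate numbers, and that an equal number means the same preparation was inferred. By these numbers 3 preparations gave a sample at both time points, and the groups are then not fully independent. The main test was unpaired and did not use these numbers.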

Additional observations from a re-analysis of the deposited data

Results flagged for a closer look

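In 6 of 72 groups of 4 samples (named genes by time point), the highest or lowest sample lay farther from the others than the Dixon test allows at the 95% level, and chance alone gives about 1 in 20 such groups. All 6 concerned the 3-week samples. Mycn was at 0.041 RPKM in replicate 4, against 0.20-0.22 in the others, which rests on 2 reads. Mlx was at 18.0 RPKM in replicate 3, against 15.5-15.9. Replicate 4 was low for Ruvbl2, with 15.3 RPKM against 19.9-20.5, and for Shmt2, with 12.9 RPKM against 22.9-24.7. Ndrg1 was at 29.6 RPKM in replicate 3, against 35.5-36.0, and Clu at 488 RPKM in replicate 1, against 256-279. For Ruvbl2, Shmt2, Ndrg1 and Clu that sample lay on the same side of all 1-week samples as the other 3-week samples.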

How the results depend on the processing

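The same 5 network genes were called with upper-quartile factors, DESeq2, no filter, unique exon reads, all reads on the gene, both limma fits and with any single library left out. Genes called lower among the 10 were 1 with a minimum mean of 1 CPM (Mxd3 was then not tested), 1 on junction reads (where Mxd3 was not tested) and 0 without the 1-week replicates 3 and 4. Over all genes 1981 were called higher and 2146 lower. With limma 1313 and 1281 were higher and 3089 and 3090 lower (pseudocounts 0.1 and 1), where the median of all genes was -0.16 and -0.10, against 0.03 with TMM factors. Higher were 1197 on junction reads and 953 without the 1-week replicates 3 and 4, the latter with fewer samples. Of the cofactors 1 was higher in both limma fits, without filter and without these replicates, and 1 to 4 with single libraries left out. Of the MYC stability genes 2 were higher with DESeq2, and 0 to 2 with single libraries left out. Repressed targets called lower were 2 to 5 with single libraries left out.

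Replicate numbers did not pair the samples. Same-numbered samples had deviations correlated at -0.23, -0.15, -0.15 and 0.25, and 2 of 8 samples correlated best with their own number. By the numbers in the names of the deposited data, replicate 2 was preparation 47 at 1 week and 49 at 3 weeks, and replicate 3 was 49 and then 57. A replicate block therefore joined different preparations under these numbers. Within the preparations 46, 49 and 90, which were sampled at both times, the correlations were -0.23, 0.20 and 0.25. With a replicate block 1309 genes were higher and 1558 lower, the same 5 network genes were called, 1 cofactor was higher and 1 repressed target, Cdkn2c, lower (Ndrg1 and Itga6 did not pass). The 3 preparations sampled at both times, with a preparation block, gave 1316 genes higher, 4 network genes (without Max), 1 cofactor higher and 1 repressed target lower. The cause of these shifts was not tested.

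Among the log2 fold changes of named genes, 638 alternative values kept direction and side of the threshold, 44 lost the call, 2 gained it and 10 changed sign, all of the last in genes that had not passed. The sign changed for Mycn (0.17 without the 1-week replicates 3 and 4, range -0.76 to 0.031 with single libraries left out), Mnt (-0.13 and -0.10 with limma, -0.061 to 0.22 with single libraries left out) and Mga (0.022 with the preparation block, -0.47 to 8.48e-05 with single libraries left out). On unique reads the share of Mxd4 was 2.45% at 1 week and 5.81% at 3 weeks. For Mycn, Mxd3 and Mlxipl depth was the limit.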
